A study of Mus musculus with 6 samples.

Results

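The Ikaros zinc finger family is a set of 5 transcription factor genes, namely Ikzf1 (Ikaros), Ikzf2 (Helios), Ikzf3 (Aiolos), Ikzf4 (Eos) and Ikzf5 (Pegasus). The members were chosen by symbol, and all 5 were found among the 24815 genes of each library. RNA sequencing measured them in common myeloid progenitors, the precursors of red cells, platelets, granulocytes and monocytes, sorted from fetal liver of C57BL/6 mice at E13.5 (embryonic day). Progenitors of wild-type embryos (libraries A, F and L) were compared with those of -77-/- embryos (libraries C, D and Q), which lack both copies of an enhancer far upstream of Gata2, with 3 libraries per group. In both groups the sorted cells lacked lineage markers, CD41, CD48 and Sca-1, carried CD34 and c-Kit, and were low for Fc receptor. The labels do not say whether each library came from a separate embryo, so p-values measure the spread between these libraries only.

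Ikaros family proteins bind DNA through C2H2 zinc fingers near the N-terminus and pair with each other through fingers at the C-terminus. They recruit chromatin complexes, chiefly the NuRD complex of the remodeller CHD4 and histone deacetylases, to the genes they bind. Ikaros is required for lymphoid development and is also made in stem and myeloid progenitor cells. Helios is known from regulatory T cells and from stem and progenitor cells, Aiolos from B cells, Eos from regulatory T cells as a partner of FOXP3, and Pegasus, the most divergent member, from platelet formation.

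The second zinc finger, counted from the N-terminus, is shown for each gene, because it is part of the DNA-binding domain. The sequences are coding strand, 5′ to 3′, from GENCODE M21 transcripts (build mm10), and capitals mark the codons of the zinc-binding cysteines and histidines.
Ikzf1: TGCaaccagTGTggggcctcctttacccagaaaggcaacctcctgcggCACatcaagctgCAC
Ikzf2: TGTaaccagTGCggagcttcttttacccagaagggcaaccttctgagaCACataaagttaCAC
Ikzf3: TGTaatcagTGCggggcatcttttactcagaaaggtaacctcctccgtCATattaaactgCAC
Ikzf4: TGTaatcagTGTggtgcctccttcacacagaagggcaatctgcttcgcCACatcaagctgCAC
Ikzf5: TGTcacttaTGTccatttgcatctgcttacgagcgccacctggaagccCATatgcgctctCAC
These fingers lie at chr11:11754024-11754086 on the plus strand and at chr1:69570581-69570643, chr11:98488940-98489002, chr10:128640229-128640291 and chr7:131392501-131392563 on the minus strand, each within a single coding exon. Ikzf1, Ikzf2, Ikzf3 and Ikzf4 encode the same 21 residues in this finger with different codons, and 51 of its 63 bases are identical between Ikzf1 and Ikzf2. Ikzf5 shares 5 of the 21 residues with each of the other 4 genes, and the search pattern fixes 4 of these, the zinc-binding ones. Fingers were paired by their order in each protein and not by alignment, so this count does not measure how far Ikzf5 has diverged. Over whole proteins, 57.2% of aligned residues were identical between Ikaros and Helios, and 29.3% between Ikaros and Pegasus. No stretch of 50 bases was shared between the transcripts of any pair of members (0 in each of the pairs compared), so the paralogs are distinct over stretches of that size. The read length is not given in the sources used here.

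Ikzf1, Ikzf5 and Ikzf2 were expressed in these progenitors, and Ikzf4 and Ikzf3 were at or near 0. On the TPM scale (a share of all transcripts, corrected for gene length), Ikzf1 stood at 145 ± 10.9 in wild type (SD, n = 3) and 98.8 ± 69.4 in the mutant (n = 3). Ikzf5 stood at 24.0 ± 3.56 and 16.7 ± 10.3 TPM, and Ikzf2 at 18.8 ± 4.99 and 7.02 ± 5.05 TPM. Ikzf1 was the highest member in each of the 6 libraries and made up 74.6% to 81.8% of the family's summed TPM. Ikzf2 was below Ikzf5 in each of the 6 libraries. In wild type A, F and L they stood at 24.52 against 24.56, 16.67 against 27.27 and 15.26 against 20.21 TPM, and their means did not differ beyond their spread. The share of Ikzf2 in the family's TPM was 4.77% to 5.89% in the mutant and 8.94% to 11.9% in wild type.

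Mutant C stood apart from the other 5 libraries. The correlation of log2 CPM (counts scaled to the TMM-adjusted library size, not corrected for gene length) across genes was 0.880 to 0.923 for pairs of mutant C with another library and 0.974 to 0.989 among the other 5. Ribosomal protein genes took 20.6% of its counts, against 6.32% to 8.61% in the others, and its count-weighted mean gene length was 1781 bases, against 2834 to 3124. The fits of the members are therefore given with and without this library. The libraries held 14473913 to 30596279 expected counts each. The progenitor markers, led by Mpo and with Cd34 and Kit present throughout, summed to 3138 to 4506 TPM in wild type and 1038 to 3510 TPM in the mutant, and T and B cell lists summed to at most 10.8 and 3.52 TPM. The 11 genes for negative or low gate markers summed to 362 to 368 TPM in wild type and 327 to 355 TPM in the mutant. They include the Fc receptor genes Fcgr3 and Fcgr2b, for which the sort was low and not negative, and Ptprc, whose isoforms were not separated. The sum is therefore no measure of cells that the gate excluded. Cd48 led the list and ranged from 90.1 to 114 CPM in wild type and from 122 to 446 CPM in the mutant.

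The highest mutant level of Ikzf2, which encodes Helios, lay under the lowest wild-type level. Its level was 92.0, 72.4 and 66.5 CPM in wild type A, F and L and 13.5, 40.6 and 42.6 CPM in mutants C, D and Q. The groups did not overlap, mutants D and Q lay close together, and mutant C was the lowest. The wild-type mean was 77.0 ± 13.4 CPM and the mutant mean 32.2 ± 16.2 CPM (SD, n = 3 each), on a mean of 1155 expected counts per library. With all 6 libraries the level was 2.38-fold lower, a log2 change of -1.25 (SE 0.43), which did not pass the threshold of 0.05 after adjustment over the genes tested (edgeR quasi-likelihood F test, unadjusted p = 0.025, adjusted p = 0.58). Without mutant C, Ikzf2 fell 1.86-fold, a log2 change of -0.90 (SE 0.14, edgeR adjusted p = 0.044). Over the same 5 libraries the adjusted p was 7.2e-07 by DESeq2 and 0.043 by limma-voom. That call rests on few libraries: with wild type F, mutant D or mutant Q also left out, the edgeR adjusted p was 0.074, 0.25 or 0.33, while the log2 change stayed between -0.997 and -0.74 whichever further library was left out. In bulk RNA, fewer cells of a type and less RNA per cell cannot be told apart.

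**Figure D1:**
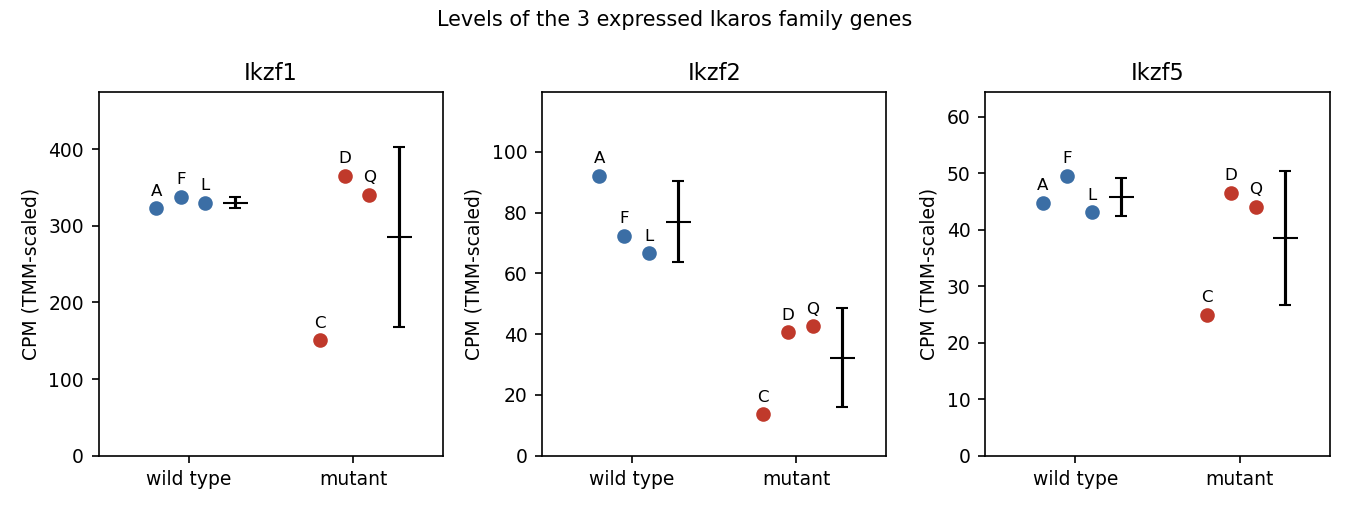
Levels of Ikzf1, Ikzf2 and Ikzf5 in TMM-scaled CPM (vertical axes, from 0) in wild-type (blue) and mutant (red) libraries, with each library as a point and its letter above it and the mean ± SD as a bar. For Ikzf2 all mutant points (13.5 to 42.6) lie under all wild-type points (66.5 to 92.0), while for Ikzf1 and Ikzf5 only mutant C lies under the wild-type range.

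Of the 5 members, 3 passed the filter on low counts and 0 were called with all 6 libraries in edgeR, DESeq2 and limma-voom. Ikzf2 was the 1 member with an unadjusted edgeR p under 0.05, as were 3.09% of all tested genes in the same direction (6.02% without mutant C). Over all genes, 0.155% of 12222 were called by edgeR in either direction, 0.73% by DESeq2 and 0.262% by limma-voom. The share was 0.139% with RLE factors, 0.195% without the filter, 0.196% with a gene-length offset, and 0.141% and 0.0794% on log2(TPM + 1) and log2(TPM + 0.1), again with 0 members called. Without mutant C, 1 member was called lower, where 0.761% of 12614 genes were called lower by edgeR, 0.721% with the length offset, 1.43% by DESeq2 and 0.769% by limma-voom. With wild type A or L left out as well, that member was still called, beside 0.93% and 0.494% of genes. With F, D or Q left out as well, 0 members were called, beside 0.549%, 0.183% and 0.139% of genes. A lack of overlap is common in these data: the mutant libraries all lay under the wild-type ones in 11.4% of tested genes, and in 14.6% without mutant C.

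Ikzf1, the founding member, showed no change that passed the test. It stood at 323, 338 and 330 CPM in wild type A, F and L and at 151, 365 and 340 CPM in mutants C, D and Q. Mutants D and Q lay just above the wild-type range, as did 14.3% of genes without mutant C, and mutant C was the lowest library. The log2 change was -0.21 (SE 0.34, edgeR adjusted p = 0.73) with all libraries and turned to 0.09 (SE 0.08, adjusted p = 0.70) without mutant C.

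Ikzf5, which encodes Pegasus, likewise gave no call. It stood at 44.8, 49.6 and 43.2 CPM in wild type and at 25.0, 46.6 and 44.1 CPM in mutants C, D and Q, so that D and Q fell inside the wild-type range. Its log2 change was -0.25 (SE 0.25, edgeR adjusted p = 0.62) with all libraries and -0.02 (SE 0.08, adjusted p = 0.93) without mutant C. Pstk, annotated on the opposite strand, overlaps the gene (chr7:131388652-131410521, mm10) over 5831 bases, and with strandedness unknown, reads from the shared stretch cannot be told apart. Fgfr2, annotated on the same strand, spans all 21870 bases of the gene and had 1 to 13.2 expected counts per library. Gm44625 on the same strand and Gm44624 on the opposite strand overlap it as well.

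Ikzf3, which encodes Aiolos, was listed at 0 counts in all libraries except mutant D, with 2 expected counts. A count of 0 allows up to 3 counts, which is 0.093 to 0.330 CPM in these libraries and covers counting error only. Ikzf4, which encodes Eos, had 3.93, 1 and 0 expected counts in wild type and 1.01, 7.01 and 4.01 in mutants C, D and Q. Neither passed the filter, so neither was tested in the filtered fits, and a difference was not detectable at this depth. Neither was called by edgeR without the filter (adjusted p = 0.64 for both) or by DESeq2 (adjusted p = 0.88 for Ikzf3 and 0.79 for Ikzf4). Foxp3, the regulatory T cell factor that partners with Eos, was also too low to pass the filter, at no more than 0.296 CPM in any library.

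The level of Ikzf2 was also set against that of Ikzf1 within each library, where scaling between libraries cancels. Ikzf2 amounted to 15.7%, 11.7% and 11.3% of Ikzf1 TPM in wild type A, F and L and to 6.39%, 7.13% and 7.20% in mutants C, D and Q. Mutant C, which stood apart in the levels themselves, lay near the other mutants in this ratio, and the groups did not overlap. The share of gene pairs without overlap was not computed. A fall-off of counts with gene length does not cancel in the ratio. In mutant C a curve of counts on gene length, described below, stood at -1.88 for Ikzf2 and -1.40 for Ikzf1 on the log2 scale. The mean log2 ratio, with 0.1 added to each TPM, was -2.96 ± 0.26 in wild type and -3.82 ± 0.05 in the mutant (SD, n = 3 each), a difference of -0.85. The two-sided exact permutation test gave p = 0.1, the smallest value that 3 libraries against 3 can reach. Without mutant C the difference was -0.82.

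**Figure D2:**
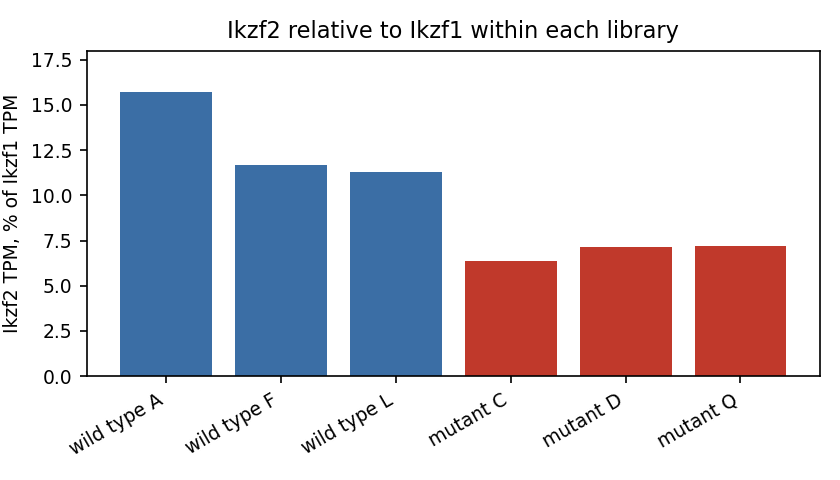
Ikzf2 TPM as a percentage of Ikzf1 TPM (vertical axis, from 0) in each of the 6 libraries, wild type in blue and mutant in red. The mutant bars (6.39% to 7.20%) all stand under the wild-type bars (11.3% to 15.7%).

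Transcript length matters for these genes because counts in mutant C fell off with length. Ikzf2 had a mean deposited length of 7710 bases and was longer than 96.8% of tested genes, Ikzf1 (4583 bases) than 82.7% and Ikzf5 (3624 bases) than 70.3%. A smooth curve of each library's counts on gene length put mutant C at -1.88, -1.40 and -1.13 on the log2 scale at the lengths of Ikzf2, Ikzf1 and Ikzf5, and each other library between 0.12 and 0.54. After division by this curve, Ikzf2 came to 63.5, 54.6 and 52.1 CPM in wild type A, F and L, while mutants C, D and Q held 49.7, 31.1 and 37.2 CPM, without overlap. The share of all genes without overlap on this scale was not computed, and Ikzf1 did not overlap either, in the other direction. The fit with that offset gave a log2 change of -0.54 for Ikzf2 (SE 0.24, edgeR adjusted p = 0.43) and -0.75 (SE 0.12, adjusted p = 0.034) without mutant C. For Ikzf1 the offset turned the sign, with wild-type libraries at 242 to 276 CPM and mutant ones at 301 to 397 CPM (log2 change 0.34, SE 0.25, edgeR adjusted p = 0.43, and 0.19, SE 0.09, adjusted p = 0.44 without mutant C). The value of 397 CPM is that of mutant C, which the offset sets too high, so no direction can be read from the fit that includes it.

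**Figure D3:**
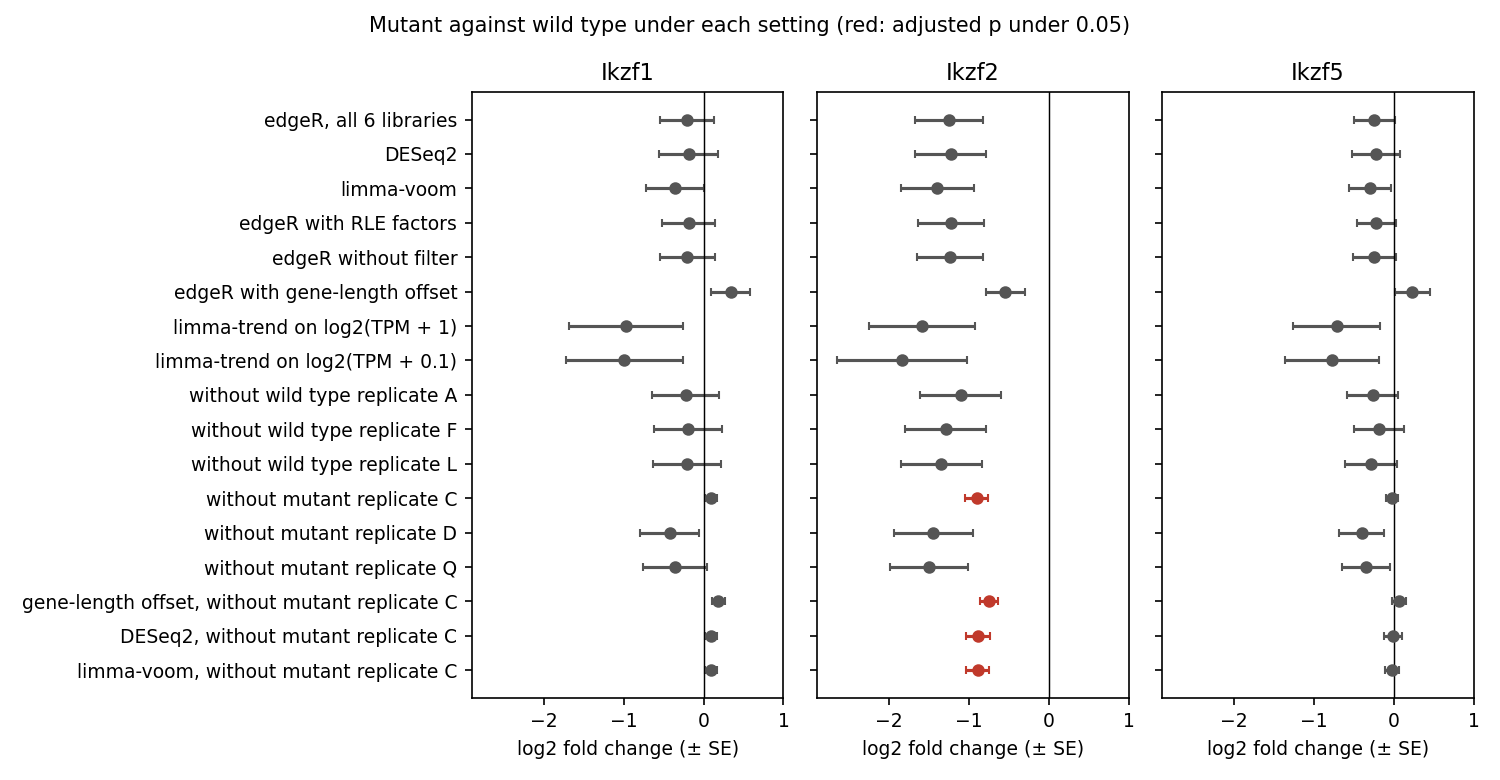
Log2 fold change of mutant against wild type (horizontal axis, point ± SE) for Ikzf1, Ikzf2 and Ikzf5 under each processing setting (rows), with red points where the adjusted p was under 0.05. Ikzf2 lies left of 0 in every row and is red only in rows that leave out mutant C. Ikzf1 and Ikzf5 lie on both sides of 0. The row with the length offset and all libraries sets mutant C too high.

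The deposited files give each gene a length averaged over its transcripts by abundance, so a shift in this value means another mix of isoforms in the authors' estimate. For Ikzf2, with 7 transcripts of 361 to 9278 bases, it was 8055, 8250 and 8118 bases in wild type A, F and L and 6723, 7055 and 8061 bases in mutants C, D and Q. Mutants C and D lay under the wild-type range and mutant Q inside it, so that the groups overlapped. For Ikzf1 the length ran from 4441 to 4568 bases in wild type and from 4536 to 4777 bases in the mutant, and for Ikzf5 from 3475 to 3996 and from 2891 to 4033 bases, again with overlap. Isoform levels themselves were not used here. The 3′ end of Ikzf2 overlaps Gm29114, annotated on the opposite strand, over 16494 bases of the locus (chr1:69531214-69687245, mm10). With strandedness unknown, reads from the stretch shared with Gm29114 cannot be told apart. Gm29112 and Gm28112, annotated on the same strand, overlap the locus over 3487 and 1875 bases. The levels of these overlapping genes are not reported here.

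Markers of other cell types also differed between the groups. With all 6 libraries edgeR called 0 of 6 tested mast cell and basophil genes, 3 of 8 tested megakaryocyte genes and 1 of 10 erythroid genes lower, where 0.155% of all genes were called in either direction. Without mutant C the counts were 5 of 6, 4 of 8 and 4 of 10, where 0.761% of all genes were called lower, and 0 genes of these lists were called higher in either fit. The 10 mast cell and basophil markers summed to 149 to 187 TPM in wild type and 12.2 to 14.9 in the mutant, led (highest mean TPM over all libraries, here and below) by Cpa3, with Gzmb, Tpsb2 and Cma1 at 0 in every library. The 10 megakaryocyte markers summed to 102 to 116 TPM and 17.1 to 54.4 TPM. The 10 erythroid markers, led by Hbb-bt, summed to 475 to 757 TPM and 305 to 695 TPM, with overlap. The 10 hepatoblast markers, led by Dlk1, summed to 79.8 to 175 TPM and 105 to 592 TPM, with overlap and with mutant Q the highest. Their median log2 change was 2.83 with all libraries and 2.60 without mutant C. Of these 10, edgeR called 0 in either fit (6 and 7 at an unadjusted p under 0.05), limma-voom 0 and DESeq2 4 with all libraries. Beside them, 587 of 12222 and 1306 of 12614 of all tested genes had an unadjusted edgeR p under 0.05 in those fits. DESeq2 called 0.73% of all genes. Afp, the fetal liver gene alpha-fetoprotein, stood at 27.6, 13.04 and 4.18 TPM in wild type A, F and L and at 20.2, 27.7 and 194 TPM in mutants C, D and Q, whereas Dlk1 had a log2 change of -0.12. The part of these cell types in the lower Ikzf2 level was not tested. Summed T cell markers, led by Lck and with Cd3e at 0, were 8.68 to 10.8 TPM and 2.82 to 8.18 TPM, and B cell markers, led by Cd22, 2.54 to 3.30 TPM and 0.96 to 3.52 TPM. Markers of NK and innate lymphoid cells, led by Id2 and with Ncr1 at 0, came to 34.0 to 38.0 TPM and 24.7 to 34.1 TPM, and macrophage markers, led by Csf1r, to 90.4 to 117 TPM and 40.5 to 121 TPM. Gata2, the gene whose enhancer was deleted, went from 66.6 ± 10.9 to 14.4 ± 4.80 CPM (log2 change -2.20, edgeR adjusted p = 0.068, and -1.97 with an adjusted p of 0.0019 without mutant C).

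Genes whose profile over the 6 libraries was nearest to a member were found by the root mean square difference of centred log2 CPM among 10045 candidates. Nearest to Ikzf2 were Tent5a, Gse1 and Adamts3, at 0.12, 0.16 and 0.17 log2 units. Tent5a stood at 14.8, 9.46 and 9.41 CPM in the wild-type libraries and at 2.09, 5.69 and 5.52 CPM in the mutants, with wild type A the highest as for Ikzf2. Nearest to Ikzf1 were Ywhag, Arap1 and Drosha (0.02 to 0.03), and nearest to Ikzf5 were Rab8b, Pik3r5 and Uaca (0.02 to 0.03). The low level of mutant C weighs heavily in these distances. Without it, the distance of Tent5a from Ikzf2 was 0.11.

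The partners through which Ikaros proteins act on chromatin gave no call. In the NuRD list, 0 of 13 genes passed by edgeR, DESeq2 or limma-voom with all libraries and 0 without mutant C by edgeR, and 0 had an unadjusted p under 0.05 in either edgeR fit. Of all tested genes, 0.155% (edgeR), 0.73% (DESeq2) and 0.262% (limma-voom) were called with all libraries. Without mutant C, edgeR called 0.761% lower. An unadjusted edgeR p under 0.05 was held by 587 of 12222 and 1306 of 12614 genes in those fits. At such shares of calls, 0 of 13 is no result about NuRD. The list's median log2 change was 0.10 with all libraries and 0.05 without mutant C, beside -0.02 and -0.01 over all tested genes. The genes with the smallest p were Hdac1 and Hdac2, which encode histone deacetylases, and Mbd3, a scaffold subunit, each at an adjusted p of 0.58. Hdac1 ranged from 171 to 192 CPM across wild type, against 331 in mutant C, 200 in D and 198 in Q. Chd4, the remodelling ATPase, ranged from 577 to 602 CPM across wild type, against 219 in mutant C, 628 in D and 563 in Q. Mutant C was the outlying library in both, in opposite directions.

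Of 10 other repressor and remodelling partners (SIN3 and CtBP corepressors and SWI/SNF subunits), 0 passed by any of the same tools or in the edgeR fit without mutant C (0 at an unadjusted p under 0.05 in either edgeR fit). At the shares of all genes called that are given for the NuRD list, 0 of 10 is no result about these partners. Their log2 changes ran from -0.43 (Smarcc2) to 0.72 (Sin3b) with all libraries, and from -0.14 to 0.08 without mutant C. Sin3b stood at 64.4 to 69.9 CPM in wild type and at 196 CPM in mutant C, with 66.7 and 68.0 in D and Q. Smarce1 was the third of the smallest p.

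The 11 regulators of Ikaros protein turnover and phosphorylation include Crbn, the substrate receptor through which thalidomide-type drugs lead to the destruction of Ikaros and Aiolos, and the subunits of casein kinase 2. None passed by edgeR (0 called, 0 at an unadjusted p under 0.05 in either edgeR fit), DESeq2 or limma-voom. At the shares of all genes called that are given for the NuRD list, 0 of 11 is no result about these regulators. Rbx1, a RING subunit of that ligase, had the largest log2 change, 1.11 (SE 0.58, adjusted p = 0.58), which was 0.11 without mutant C. Ppp1ca, a phosphatase gene, and Cul4a, the ligase scaffold, were the other two with the smallest p, both at an adjusted p of 0.58. Crbn ranged from 31.7 to 35.8 CPM across wild type, against 50.2 in mutant C, 30.2 in D and 35.5 in Q.

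Among lymphoid priming genes, early lymphoid genes of which several depend on Ikaros, 11 of 20 listed were tested. With all libraries 0 passed by edgeR (2 at an unadjusted p under 0.05), DESeq2 or limma-voom, and without mutant C edgeR called 1 lower and 0 higher (3 at an unadjusted p under 0.05). Of all tested genes, 587 of 12222 with all libraries and 1306 of 12614 without mutant C had an unadjusted edgeR p under 0.05. Without mutant C, 0.761% of all genes were called lower. Ccr9, a chemokine receptor gene, and Notch3 had log2 changes of -0.97 and -1.12 with all libraries (edgeR adjusted p = 0.58 for both) and of -1.004 and -0.72 without mutant C (adjusted p = 0.42 and 0.40). Flt3, the receptor gene of multipotent and lymphoid progenitors, ranged from 128 to 159 CPM across wild type and from 131 to 160 CPM across the mutants. The list's median log2 change was -0.25 with all libraries and -0.07 without mutant C.

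**Figure D4:**
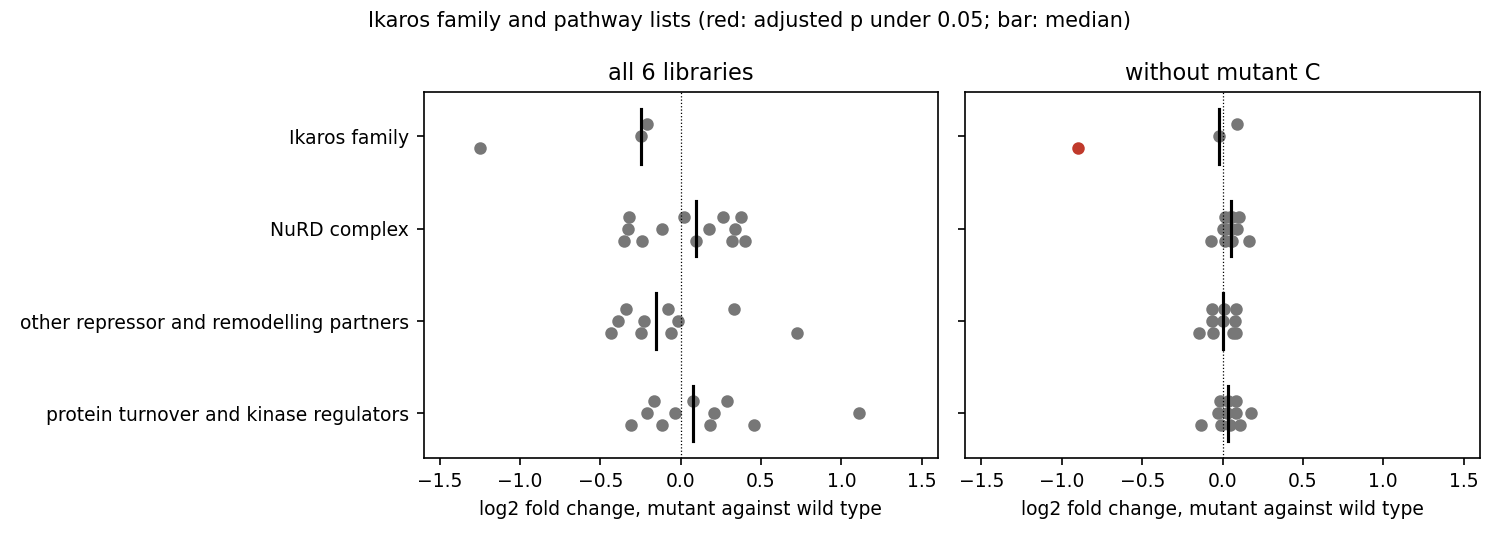
Log2 fold change of mutant against wild type (horizontal axes) for each tested gene of the Ikaros family and of the 3 partner and regulator lists (rows), with all 6 libraries (left) and without mutant C (right), where a bar marks the row's median and red marks an adjusted p under 0.05. Without mutant C the red point is Ikzf2 (-0.90), and the 3 lists lie between -0.14 and 0.18.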

How the data were processed

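RNA sequencing of 6 libraries was analysed, 3 per genotype. The deposited expected counts are RSEM read counts per gene, not normalized, and the deposited TPM values are corrected for gene length, per the file headers. FPKM values, also deposited, were left aside. Build mm10 and the tools RSEM 1.2.18, Bowtie 1.1.1 and CASAVA 1.8.2 come from the submitters' processing notes. Strandedness, read layout and the authors' annotation: not given in the sources used here.

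Counts were rounded, filtered with filterByExpr (minimum count 10, leaving 12222 of 24815 genes), scaled by TMM and tested in R 4.3.3 by edgeR 4.0.16 (quasi-likelihood F test, Benjamini-Hochberg adjustment over all genes tested, threshold 0.05). An SE is the size of the log2 change over the root of its F statistic. Alternatives used DESeq2 1.42.0, limma 3.58.1 (voom, and log2 TPM with pseudocounts of 0.1 or 1), RLE factors, no filter, a gene-length offset (loess, span 0.5) and the omission of each library in turn. The length offset, DESeq2 and limma-voom without mutant C, and the fits that left out mutant C with a second library, were chosen after seeing the data. The code was tested on simulated data.

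Members and gene lists (4 pathway lists and 10 lists of cell type and gate markers) were chosen with earlier results of these data known. Named genes are the members, pathway genes called or with the 3 smallest p per list, the 3 nearest profiles per tested member (mean of at least 50 counts), and the most abundant marker of each cell type. Afp, Chd4, Crbn, Flt3, Cd34, Kit, Foxp3 and Gata2 were added after their values were seen. Symbols came from a table of Ensembl identifiers, and positions and transcripts from GENCODE M21. Zinc fingers were found by the pattern of 2 cysteines and 2 histidines in the longest coding transcript. Ighm matched no gene. Some genes that the naming rule covers are not reported here.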

Additional observations from a re-analysis of the deposited data

How the results depend on the processing

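The lower Ikzf2 level kept its direction under every alternative. Its log2 change was -0.54 to -1.84 with all 6 libraries and -1.50 to -0.90 with each library left out in turn. The value of -0.54 is from the fit with the length offset, which sets mutant C too high. It passed the threshold only without mutant C: -0.90 by edgeR, -0.89 by DESeq2, -0.89 by limma-voom, -0.75 with the length offset, and -0.74 and -0.997 with wild type A or L also left out. The number of members called accordingly went from 0 to 1 in these 6 fits, as did that of lymphoid priming genes (1, in the same fits and with wild type F or mutant D also left out). For the 3 other lists it was 0 in every fit.

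Ikzf1 changed direction with the length offset (0.34) and without mutant C (0.09; 0.19 with the length offset, 0.10 by DESeq2, 0.089 by limma-voom, and 0.08, 0.10, 0.08, 0.04 and 0.14 with A, F, L, D or Q also left out); it ran from -0.42 to 0.09 with each library left out. Ikzf5 turned to 0.23 with the length offset, to 0.065 with that offset and without mutant C, and to 0.033 and 0.021 without mutant C and wild type F or mutant Q; it ran from -0.40 to -0.02 with each library left out. The values of 0.34 and 0.23 are from the fit with the length offset that sets mutant C too high, so no direction is read from them. The cause of the other turns was not tested.

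Over all genes, edgeR called 19. The count was 124 by DESeq2, 32 by limma-voom, 36 without the filter and 9 on log2(TPM + 0.1), and 0 to 106 with each library left out. Without mutant C it was 108 with the length offset, 243 by DESeq2 and 111 by limma-voom, and 131, 77, 66, 29 and 19 with A, F, L, D or Q also left out. The cause of these changes in number was not tested. The Ikzf2 to Ikzf1 ratio kept its direction in all alternatives (-0.94 to -0.62). A lone library of a group was assumed to vary like the others. No paired analysis was possible because the replicate letters differ between the groups. Depth limits Ikzf3 and Ikzf4, at a mean of 0.333 and 2.83 expected counts.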
